A study of Auxenochlorella pyrenoidosa with 12 samples.

Results

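Cultures of the green alga Auxenochlorella pyrenoidosa without nitrate (N0, 0 g/L NaNO3) were compared with cultures at the full nitrate level (N1.5, 1.5 g/L NaNO3, the control) across all measured transcripts. The 6 libraries, 3 per group, were taken by their titles from the 12 in the series. The other 6, at 0.5 g/L (N0.5) and 1 g/L (N1), gave context and part of the estimate of spread. Both groups came from the line labelled SHOU-1002, with no genetic change named, so every contrast below is within 1 strain. The series describes 3 biological repeats per group; nothing in the labels says how the cultures were kept apart, their age, how long they stayed at each nitrate level or in which batch they were handled. The p-values therefore measure the spread between these libraries, and a batch or a growth stage that differed between the groups cannot be told apart from nitrate.

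Auxenochlorella and related green microalgae take up nitrate, reduce it to nitrite and then to ammonium, and build the ammonium into glutamine and glutamate. When nitrogen runs short, such algae are known to slow growth, to break down photosynthetic pigment and protein, and to store carbon as starch and as triacylglycerol, the lipid that makes them of interest for oil production. The series asks how transcript levels change along with that lipid accumulation. The deposited tables name features only by assembly identifiers and pair them with no gene name, function or sequence, so the transcripts of those pathways are not identified here. A feature may be an isoform or a fragment of a gene, and where 2 features are nearly identical their values are uncertain, because the counting may have divided reads among them.

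Each N0 library held 22873497 to 24383226 estimated counts and each N1.5 library 22027761 to 23906213. Levels are given as counts scaled to the library size (CPM) after TMM scaling, which assumes that most features do not change, unless a share of raw counts is named. Of 16413 features, 15429 had enough counts to be tested. Libraries of 1 group differed by more than counting error, with a chi-square per degree of freedom of at least 5.68 in every pair, and each was counted as 1 replicate. Separate libraries made from 1 culture would also exceed counting error, so this does not show that the cultures were separate. The biological coefficient of variation estimated from each group alone was 10.5% in N0 and 9.42% in N1.5. N1.5 replicate 3 held more of the transcripts typical of N0 than the other controls did, and the counts of strong rises and of near-absence in N1.5 are given with and without it.

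Libraries from cultures without nitrate held a different mix of transcripts from the controls. Between any N0 library and any N1.5 library, 19.1 to 20.9% of the counts were assigned to different features (median 20.1% over 9 pairs, taking the summed gain in count share over features). Pairs within N0 differed by 3.18 to 4.75%, and pairs within N1.5 by 2.90 to 4.78%. Every pair of N0 with N1.5 thus differed by more than every pair within either group. As context, N0 differed from N0.5 by 23.8 to 25.5%, which is more than from N1.5, and from N1 by 17.4 to 19.6%. N0.5 differed from N1.5 by 17.4 to 18.7% and N1 from N1.5 by 5.15 to 7.55%. The last range overlaps that of pairs within N1, which differed by 2.46 to 5.35%.

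**Figure D1:**
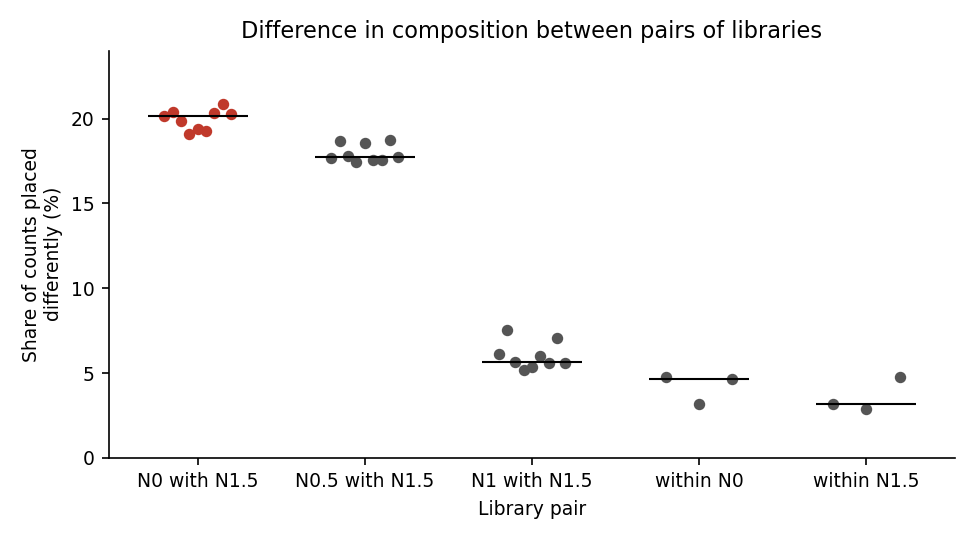
Share of counts placed on different features (y axis, %) for each pair of libraries, with pairs across groups at the left and pairs within a group at the right; points are pairs and lines are medians. The 9 pairs of N0 with N1.5 lie between 19.1 and 20.9%, above all pairs within N0 or within N1.5, which lie between 2.90 and 4.78%.

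By share of counts, the gains were concentrated in fewer transcripts than the losses. In N0, 6282 features gained share and 10111 lost it. Of these, 89 features made up 50% of everything gained in N0, whereas 435 made up 50% of everything lost. The 10 largest gains carried 25.9% of the total gain and the 10 largest losses 10.4% of the total loss. Shares of a library have a fixed total, so large gains in some features lower the shares of others. Whether the contrast holds after TMM scaling was not tested. The number of features that together filled 50% of a library was 572, 688 and 602 in the N0 libraries, against 820, 840 and 778 in the N1.5 libraries, with no overlap between the groups. The top 1000 features took 57.5% ± 1.38 of a library's counts in N0 and 53.3% ± 0.61 in N1.5 (SD, n = 3 each). A two-sided exact permutation test gave p = 0.1 for both measures, the smallest value that 3 against 3 libraries allow.

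By the quasi-likelihood test in edgeR, at a Benjamini-Hochberg adjusted p under 0.05, 8916 features (57.8% of those tested) differed, of which 4104 (26.6%) rose and 4812 (31.2%) fell in N0. The balance of directions depends on scaling: rises were 46.0% of the calls with TMM, 49.1% with RLE size factors and 31.8% with library totals, under which the median log2 fold change over the tested features was -0.19 rather than -0.01. Most called changes were modest. The median called rise was 1.66-fold, with a log2 fold change of 0.73, and the median called fall had a log2 fold change of -0.74. Of the calls, 40.7% were smaller than 1.5-fold and 62.5% smaller than 2-fold, while rises of at least 2-fold numbered 1591 (10.3%) and such falls 1750 (11.3%).

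**Figure D2:**
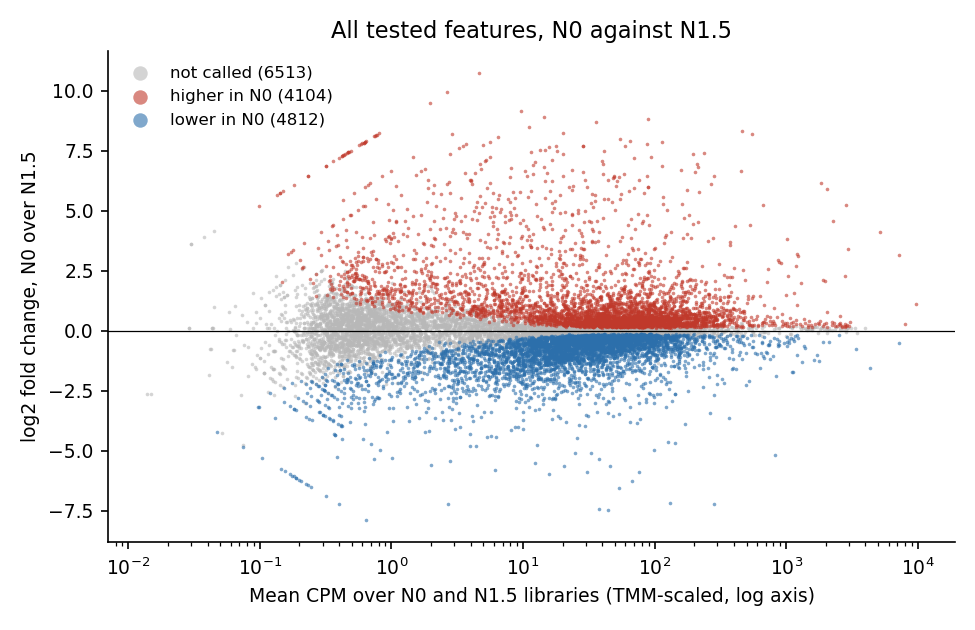
Each point is 1 of the 15429 tested features, placed by its mean CPM over the 6 libraries (x axis, log) and its log2 fold change of N0 over N1.5 (y axis); red points rose, blue points fell and grey points were not called. Rises reach further from 0 than falls, and the diagonal streaks at the left are features with no counts in one group.

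A stricter question is which changes were shown to exceed a given size. Tested against a threshold of 1.5-fold with edgeR's TREAT method, 3858 features passed (25.0%), of which 1728 (11.2%) were higher and 2130 (13.8%) lower in N0. At the other end, 5392 features (34.9%) had a 95% interval of the fold change that lay wholly inside 1.5-fold in either direction. Of these, 2314 were nevertheless called, so their change was both measurable and small. Among the 6513 features not called, 3078 had an interval inside 1.5-fold, but for 2795 the interval reached 2-fold or beyond. For these 2795 features the libraries do not show whether a change of that size took place.

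Most called features did not overlap between the groups. In 9860 tested features (63.9%) the 3 N0 libraries all lay on one side of the 3 N1.5 libraries, 4647 with N0 higher and 5213 with N0 lower. Of the 8916 called features, 8693 (97.5%) were of this kind, as were 3273 of the 3341 called with a change of 2-fold or more. Another 1167 features separated without being called. The calls rest on the difference between these same libraries, so the 97.5% is set in large part by the choice and is a description.

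The direction and the size of the calls differed with abundance. Over all tested features, 26.6% rose and 31.2% fell, or 10.3% and 11.3% at 2-fold or more. Among the 1991 features with a mean of 100 CPM or more over the series, 865 rose (43.4%) and 579 fell (29.1%) in N0. With library totals this turned to 580 rises and 834 falls. Among the 7950 features between 10 and 100 CPM, 2207 rose (27.8%) and 3262 fell (41.0%). Falls were also more frequent with RLE (2399 and 3075) and with library totals (1480 and 4299). Between 1 and 10 CPM, 726 of 3038 features rose (23.9%) and 787 fell (25.9%). Below 1 CPM, 306 of 2450 rose (12.5%) and 184 fell (7.51%). Rises led with all 3 scalings (319 and 181 with RLE, 252 and 221 with library totals). The classes rest on the mean over all 12 libraries, so a feature high only in N0 stays in a low class more easily than one low only in N0. Rare features were also tested only where a group held enough counts. The balance below 1 CPM is therefore set in part by the classes and the filter, under every scaling, and is a description. The largest rates of change by 2-fold or more were in the class from 1 to 10 CPM, with 17.6% up and 17.5% down, against 8.89% up and 7.84% down at 100 CPM or more. Precision was better at high levels: standard errors of the log2 fold change had a median of 0.68 in the class below 1 CPM, against 0.073 in the top class, so nearly all calls below 1 CPM are of large changes, since small ones could not pass: 305 of the 306 rises there were 2-fold or more.

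Transcript length, as implied by the ratio of deposited counts to deposited FPKM, ran with the calls of any size as well. In 4 classes of equal size, the median length was 436, 1114, 1698 and 2791 bases. Rises took 17.2, 23.9, 28.7 and 36.6% of the features from the shortest class to the longest, beside 26.6% over all tested features. Falls were least frequent in the shortest class, at 16.1%, and most frequent in the second, at 40.9%, followed by 37.1% and 30.6% in the longer ones. Over all tested features falls took 31.2%. In the longest class 1413 features rose and 1182 fell, which turned to 961 and 1614 with library totals. In the second class falls led with all 3 scalings (921 rises and 1578 falls with TMM). The classes also differ in abundance, with median levels of 0.76, 22.2, 30.8 and 57.3 CPM, and the part of abundance in the relation to length was not tested.

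The top of the abundance ranking was largely kept. Of the 100 most abundant features in N0, 78 were also among the 100 most abundant in N1.5. The 22 that entered had a median rank of 348.5 in N1.5 and the lowest had rank 4305 there. The 22 that left had a median rank of 136 in N0, and the lowest had rank 4857 there. Among the 100 most abundant in N0, 58 rose and 6 fell with TMM (32 and 14 with library totals), with 23 rises and 1 fall of at least 2-fold. Among the 100 most abundant in N1.5, 37 rose and 23 fell (10 and 32 with library totals), with 2 rises and 10 falls of at least 2-fold. Choosing by the level in N0 favours rises and choosing by the level in N1.5 favours falls, so these counts are a description, beside 26.6% up and 31.2% down over all tested features and 10.3% and 11.3% at 2-fold.

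The features below are those with the largest rises and falls in mean CPM among features that were called, changed 2-fold or more and did not overlap between the groups. What they encode is not given in the files. They are shown because they moved the most counts of the features that met these conditions.

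The largest rise was in TRINITY_DN7326_c0_g1_i7_3. It stood at 13398, 11560 and 13547 CPM in the N0 libraries, against 1424, 1144 and 1792 CPM in the N1.5 libraries. All N0 values lie far above all controls, and N1.5 replicate 3 was the highest control. The log2 fold change of N0 over N1.5 was 3.14 ± 0.14 (standard error; edgeR adjusted p = 2.87e-10). It took 1.19% of all counts in N0 and 0.152% in N1.5, moving to rank 2 in N0 against rank 79 in N1.5. Over the series it averaged 12835 ± 1107 CPM in N0, 2668 ± 229 in N0.5, 3997 ± 219 in N1 and 1454 ± 325 in N1.5 (SD, n = 3 each). Its level therefore did not follow the nitrate series step by step, since N0.5 was below N1.

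The next largest rise, in TRINITY_DN6893_c0_g2_i3_2, was 17.5-fold. It stood at 10343, 8645 and 10267 CPM in the N0 libraries, against 527, 401 and 740 CPM in the N1.5 libraries. Again the groups were far apart and N1.5 replicate 3 was the highest control. The log2 fold change of N0 over N1.5 was 4.13 ± 0.19 (standard error; edgeR adjusted p = 3.54e-10). Its group means were 9752 ± 959 CPM in N0, 1374 ± 142 in N0.5, 1779 ± 120 in N1 and 556 ± 171 in N1.5 (SD, n = 3 each), the same order of groups as in TRINITY_DN7326_c0_g1_i7_3. Without N1.5 replicate 3 the log2 fold changes were 3.32 for TRINITY_DN7326_c0_g1_i7_3 and 4.39 for TRINITY_DN6893_c0_g2_i3_2.

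The largest fall was in TRINITY_DN4242_c0_g1_i2_1, which ranked 49 in N0, against 3 in N1.5. It stood at 2336, 2110 and 2218 CPM in the N0 libraries, against 6851, 5894 and 6702 CPM in the N1.5 libraries. The groups did not overlap, and the N0 values lay close together. The log2 fold change of N0 over N1.5 was -1.55 ± 0.15 (standard error; edgeR adjusted p = 6.95e-07). Along the series it averaged 2221 ± 113 CPM in N0, 2961 ± 672 in N0.5, 7309 ± 1178 in N1 and 6483 ± 515 in N1.5 (SD, n = 3 each). The N1 libraries overlapped the controls, and 1 of the N0.5 libraries, at 2247 CPM, lay within the range of N0.

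TRINITY_DN6697_c0_g1_i1_4 fell to rank 4857 in N0, against rank 66 in N1.5. It stood at 44.2, 41.1 and 47.3 CPM in the N0 libraries, against 1559, 1556 and 1671 CPM in the N1.5 libraries. It was thus 36.1-fold higher in N1.5, and replicates of each group were within a narrow range. The log2 fold change of N0 over N1.5 was -5.17 ± 0.078 (standard error; edgeR adjusted p = 6.73e-14). At the intermediate levels it averaged 2612 ± 118 CPM in N0.5 and 1434 ± 58.0 in N1 (SD, n = 3 each), so that N0.5 was the highest of the 4 groups and N0 alone was low. On the length-scaled measure it averaged 15.6 ± 0.70 FPKM in N0 and 640 ± 11.98 FPKM in N1.5 (SD, n = 3 each).

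**Figure D3:**
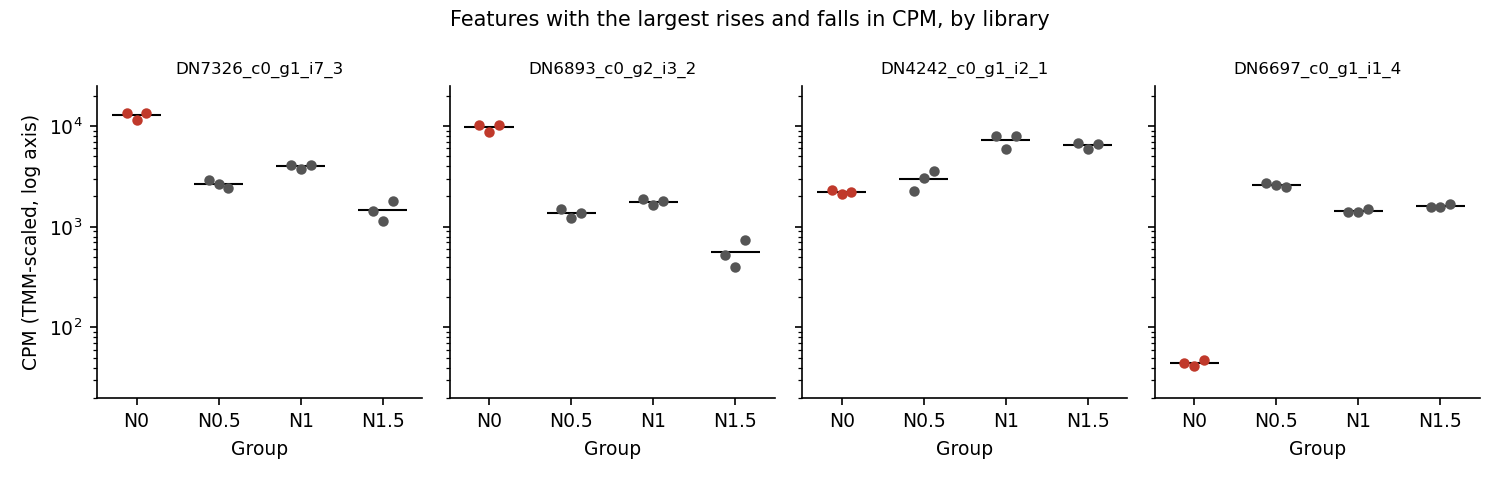
CPM by library (y axis, log) of the features with the largest rises and falls, in groups N0, N0.5, N1 and N1.5; points are libraries and lines are group means. The first pair of panels shows N0 above every other group, and the last shows N0 at 41.1 to 47.3 CPM, with every library of the other groups at 1393 CPM or more.

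Over all tested features, large changes were more often rises than falls, though by a small margin with library totals. Rises of at least 4-fold numbered 782 (5.07%) and such falls 530 (3.44%), against 698 and 654 with library totals and 802 and 505 with RLE. With library totals, the lead of rises came from features below 10 CPM. These rises and falls numbered 177 and 157 below 1 CPM, and 264 and 207 from 1 to 10 CPM. From 10 to 100 CPM they numbered 204 and 234, and at 100 CPM or more 53 and 56. With TMM, rises led in every class (66 and 47 at 100 CPM or more). The balance below 1 CPM is set in part by the classes and the filter. With TMM, at 32-fold there were 214 rises and 39 falls. Of the 214, 43 reached 100 CPM or more in N0 and 5 reached 1000 CPM, so the strongest rises included abundant transcripts. Of the 39 falls, 6 had been at 100 CPM or more in N1.5. Where the lower group has almost no counts, the fitted fold is uncertain: 77 of the 214 had 3 counts or fewer in every N1.5 library (94 when N1.5 replicate 3 is not considered), and 20 of the 39 had 3 or fewer in every N0 library. A condition on every library is easier to meet with 1 library less, so the number cannot fall when a control is set aside. By contrast, 87 of the 214 and 16 of the 39 had more than 3 counts in every library of the lower group. The 32-fold falls numbered 24 when the 6 libraries were fitted alone, 70 without N0 replicate 1, 80 without N0 replicate 2 and 66 without N0 replicate 3, and the 32-fold rises numbered 277 without N1.5 replicate 3.

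Few tested features were nearly absent from a whole group. There were 163 with 3 counts or fewer in every N1.5 library, and 113 of the 163 rose in N0, the highest to a mean of 29.0 CPM. The 163 became 249 when N1.5 replicate 3 was not considered, and setting aside any control could only keep or raise this number. In the opposite direction, 161 had 3 counts or fewer in every N0 library, and 82 of them fell in N0, the highest of which averaged 5.32 CPM in N1.5. Such features were tested only because another group held enough counts to pass the filter, so the shares that were called are set in part by the filter. Choosing features by low counts in 1 of the compared groups also favours calls towards the other. These counts are therefore a description, beside 26.6% up and 31.2% down over all tested features. For a feature with no count, counting error alone leaves room for 3 counts, or 0.123 to 0.136 CPM without scaling in these 6 libraries. Some of the 214 strongest rises were more visible in 1 control than in the others: their median level, as a share of their N0 mean, was 1.60% in N1.5 replicate 3, 0.529% in N1.5 replicate 1 and 0.507% in N1.5 replicate 2. Where this trace came from was not tested.

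In the intermediate groups, the strongly changed features lay nearer to the control than to N0. The 782 features that rose 4-fold or more had median levels of 14.4, 14.6 and 14.5 CPM in the N0 libraries, 1.54, 1.70 and 1.40 in N0.5, 1.30, 1.13 and 1.29 in N1, and 0.71, 0.66 and 1.02 in N1.5. In N0 the 3 medians were alike and far above those of the other groups. The 530 features that fell 4-fold or more had medians of 1.08, 1.13 and 1.08 CPM in the N0 libraries, 7.79, 8.08 and 7.82 in N0.5, 6.60, 7.14 and 6.54 in N1, and 8.10, 8.34 and 7.58 in N1.5. Here too N0 stood apart, while N0.5 and N1 stayed at or near the control. These features were chosen by their difference between N0 and N1.5, so the gap between those groups is fixed by the choice and is enlarged by it, and the medians in N0.5 and N1 are a description.

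**Figure D4:**
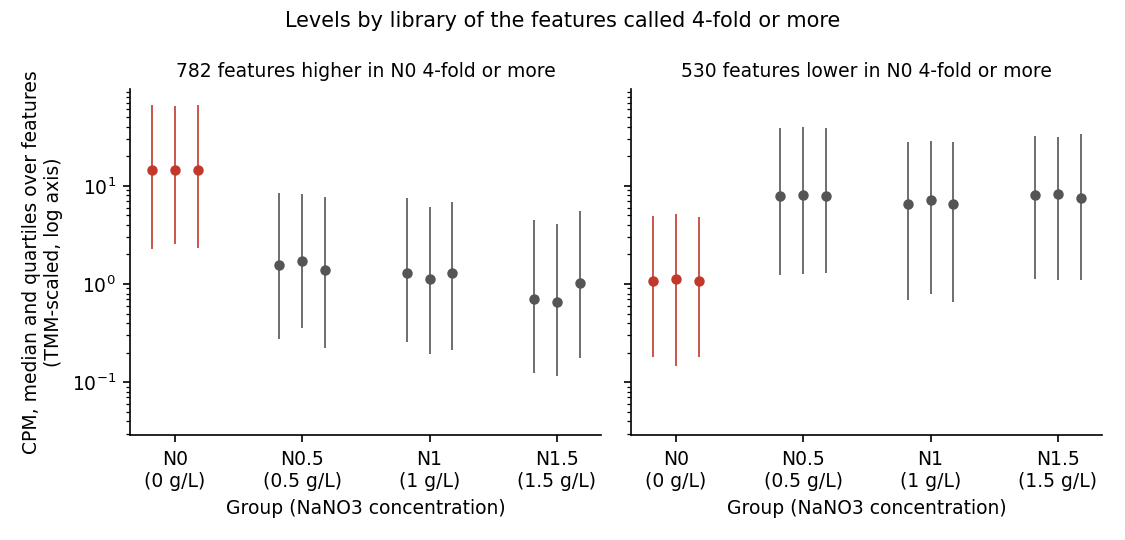
Median CPM over features (points) with quartiles (bars) for each library (y axis, log; x axis, group and NaNO3 concentration), for features called with a rise (left) or fall (right) of 4-fold or more in N0 against N1.5. The 3 N0 libraries stand at medians of 14.4 to 14.6 CPM on the left and 1.08 to 1.13 CPM on the right, apart from the other 3 groups.

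The direction of change also differed by how a feature is named. Every feature name ends in a number from 1 to 4 whose meaning is not given in the files. Among names ending in 3, there were 218 rises and 599 falls of at least 2-fold, 5.53% and 15.2% of 3941. Among names ending in 1, 582 rose and 377 fell, 13.2% and 8.52% of 4423. Names ending in 4 gave 428 rises and 323 falls of 3386, and names ending in 2 gave 363 and 451 of 3679. Over all tested features the shares were 10.3% up and 11.3% down. With library totals, falls led in all 4 sets, at 467 rises and 497 falls for names ending in 1, 356 and 420 for 4, 312 and 583 for 2, and 172 and 743 for 3. Names ending in 3 had the lowest share of rises under each scaling. Without N1.5 replicate 3 the numbers were close to these, at 228 rises and 586 falls for names ending in 3 and 579 and 377 for names ending in 1.

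The relation to the name was strong among rare transcripts and small among abundant ones. Below 1 CPM, names ending in 3 had 17 rises and 75 falls of 2-fold or more among 662 features, whereas names ending in 1 had 130 and 25 among 715, and names ending in 4 had 99 and 16 among 553. With library totals these were 15 and 84, 105 and 30, and 81 and 23. Over all features below 1 CPM, 12.4% rose and 7.51% fell 2-fold or more, a balance set in part by the classes and the filter. From 1 to 10 CPM, names ending in 3 had 57 such rises and 209 falls among 772 features. Names ending in 1 had 205 and 89 among 875, and names ending in 4 had 149 and 95 among 684. Over that whole class 17.6% rose and 17.5% fell 2-fold or more. At 100 CPM or more, rises took 9.37, 9.47, 7.32 and 9.39% of the features with names ending in 1, 2, 3 and 4, and falls took 7.75, 7.41, 8.74 and 7.42%. The 4 sets had similar median lengths of 1358 to 1421 bases and similar median levels of 21.7 to 24.5 CPM. Whether the naming reflects how the catalogue of features was put together was not tested.

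**Figure D5:**
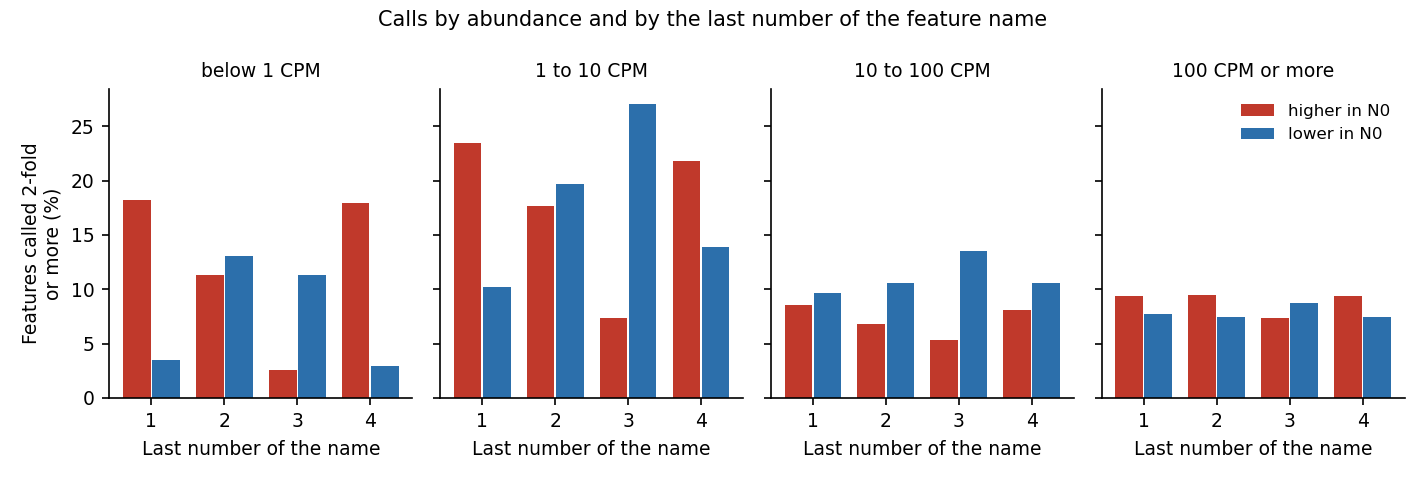
Share of tested features called with a change of 2-fold or more (y axis, %), by the last number of the feature name (x axis) within 4 abundance classes; red bars are features higher in N0 and blue bars features lower in N0. Below 1 CPM the bars for names ending in 3 stand at 2.57% up and 11.3% down, against 18.2% and 3.50% for names ending in 1, while at 100 CPM or more all bars lie between 7.32 and 9.47%.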

How the data were processed

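Poly(A)-selected RNA was sequenced in 12 libraries, per the labels' protocols, after TRIzol extraction, DNase I treatment and oligo(dT) purification, with a NEBNext Ultra kit. The authors deposited estimated counts and FPKM values for 16413 features in each library. Trimmomatic 0.40, Bowtie2 2.4.5 and DESeq are named, per the submitters' processing notes, without role or order. Which tool counted the reads, how the features were assembled and any annotation: not given in the sources used here. Feature names have the form of Trinity contigs.

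Counts were rounded to whole numbers. In R 4.3.3, edgeR 4.0.16 (glmQLFit and glmQLFTest) was run on 15429 features kept by filterByExpr (984 left out), with TMM scaling (factors 0.908 to 1.07) and all 12 libraries in 1 fit, no covariate, 8 residual degrees of freedom. The contrast was N0 minus N1.5. Tests were two-sided, with Benjamini-Hochberg adjustment over all tested features and a threshold of 0.05. The standard error was taken as the size of the log2 fold change divided by the square root of F. TREAT used a fold of 1.5. Abundance classes have edges at 1, 10 and 100 CPM, by mean unscaled CPM over 12 libraries. Lengths are counts over FPKM and library total. Named features are the 2 largest rises and 2 largest falls in mean CPM among called, non-overlapping features changed 2-fold or more. Comparisons, thresholds and groups of features were chosen with earlier results of these data known. A planned test of isoform usage and a planned sum over assembled loci were not run, because each of the 16413 features was the single one of its locus number and final number.

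On simulated data for N0 against N1.5 with 15429 features, edgeR called 55.2, 68.7 and 90.9% of features changed 1.5-, 2- and 4-fold, and 10 of 15229 unchanged ones. The simulation changed only 67, 67 and 66 features at these folds, against 8916 called in the data. Its rates may therefore not hold here, where the assumption that most features do not change is less secure. Alternatives were RLE, library totals, no filter, only the 6 libraries, a replicate block, DESeq2 1.42.0, limma 3.58.1 on log2(FPKM + 1), and each library left out in turn.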

Additional observations from a re-analysis of the deposited data

How the results depend on the processing

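In no alternative where it was read was a named feature reversed or its call lost. With limma on log2(FPKM + 1), the named features were not read. Rises were 31.8% of the limma calls, against 46.0% of the reported ones. Of the 8916 features, limma called 7692 (86.3%) again in the same direction and 0 in the opposite one. Counts by fold with limma were not set against the reported ones. Counts of called features over the whole table stayed within 1.5 times the reported ones in every setting where they were compared, except for falls of 32-fold or more. Those numbered 39 as reported, 24 with only the 6 libraries, and 42 to 80 with 1 library left out. Counts within groups of features moved more with library totals, such as rises among the 100 most abundant in N1.5, at 10 against 37, and among names ending in 3, at 533 against 802. The counts at 4-fold and 32-fold were added after seeing the data. Leaving out 1 library gave 8248 to 8544 called features, against 8916 with all. DESeq2 called 9105 and limma on log2(FPKM + 1) called 9281. Of the 8916 features, 7726 (86.7%) were called again in the same direction with library totals and 8657 (97.1%) with RLE, and 0 were called in the opposite direction. Of the 1312 changed 4-fold or more, 1300 (99.1%) were called again with library totals. With the replicate number as a block, 8924 features were called, and 8755 of the 8916 were among them in the same direction. Deviations from the group mean of same-numbered N0 and N1.5 libraries correlated at 0.0080, 0.046 and 0.046 across features, so the numbers were not taken to pair the libraries. The DESeq2 comparison covers no TREAT test. Depth limits the features below 1 CPM most.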

Other observations

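Feature names share stems without sharing behaviour. Of 11533 name stems before the isoform number, many carry several final numbers, but each of the 16413 combinations of stem and final number occurs once. Over 5232 pairs of tested features with the same stem and different final numbers, the log2 fold changes of N0 over N1.5 correlated at -0.047 and the log2 implied lengths at 0.19. These are descriptions across features, which are not independent replicates. Features with the same stem were therefore not treated as parts of 1 locus.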
